A study of Mus musculus with 90 samples.

Results

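CT26 cells, a mouse colon carcinoma line, were compared after the same 24 h of fresh IFNγ, given either to cells that had already been grown in IFNγ for 3 weeks (chronic cells) or to naive cells that had not met it before. The comparison rests on 6 of the 90 samples of the series, 3 chronic and 3 naive, chosen by their line, week and time labels and not by any measured value. IFNγ was used at 50 IU/mL, and transcripts were counted by 3′ digital gene expression, which tags each transcript near its 3′ end. Samples used beside these 6 were CT26 controls without IFNγ at 0 and 3 weeks, chronic CT26 cells collected at 3 weeks without fresh IFNγ (0 h), chronic and naive CT26 cells after 2 h of IFNγ, CT26 cells exposed for 1 or 2 weeks and given 24 h of fresh IFNγ, and the same pair of 24 h groups in the YUMM2.1 mouse melanoma line, each with 3 samples. The study's methods describe its replicates in general as biologically independent, while the labels do not say which samples came from separate cultures. In the main edgeR fits, p-values rest on the spread between samples of a group, shared over all 45 samples of a line in 15 groups. Some of these groups are not listed above.

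Total counts were 519097, 618598 and 1337965 in the naive samples and 741156, 1074075 and 1019397 in the chronic samples. Levels are given as CPM, the counts of a gene scaled to a common library total after TMM adjustment, and each fold change is the log2 ratio fitted by edgeR, positive where chronic cells were higher. Of the 8 markers of colon carcinoma or epithelial identity listed for a check of the label, Krt18 and Krt20 had counts in the 6 samples, and Krt8, Krt19, Epcam, Cdh1, Vil1 and Cdx2 had none. Their summed levels were 51 to 69.3 CPM in naive and 69.7 to 70 CPM in chronic samples. Summed melanocyte markers stood at 4.46 to 11.9 CPM in naive and 1.86 to 7.78 CPM in chronic samples, with Mlana, Pmel, Tyrp1, Sox10 and Ednrb at 0. Summed leukocyte markers stood at 1.70 to 5.95 CPM and 4.41 to 15.6 CPM, with Cd3e, Itgam, Adgre1 and Laptm5 among those at 0. Their counts over the 6 samples came from Cd68 (26), Ptprc (8) and Lyz2 (1). Summed fibroblast markers stood at 35.7 to 98.1 CPM and 54.8 to 113 CPM, largely from Col1a2, with 7 of 8 markers detected and Postn at 0. These sums overlapped the epithelial ones and reached higher, so the markers did not set the label apart from fibroblasts.

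IFNγ binds its receptor and activates the kinases JAK1 and JAK2. Transcription factors activated by these kinases bind GAS elements in promoters such as that of Irf1, and the IRF1 protein then acts with other factors on ISRE elements of a second wave of genes. Among these genes are MHC class I chains, which present peptides to T cells, and the guanylate-binding proteins (GBPs) and immunity-related GTPases (IRGs), which attack vacuoles of intracellular microbes. A separate programme, run by the transcription factor ATF4 and the unfolded protein response, raises amino acid synthesis, tRNA charging and chaperone genes when amino acids run short or proteins misfold.

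The promoters of called interferon and ATF4 pathway genes were searched on both strands for GAS (TTCNNNGAA), ISRE (GAAA, any 2 bases, then GAAA), the ATF4 response element (TGATGNAA) and the ER stress response element, ERSE (CCAAT, any 9 bases, then CCACG), in RefSeq windows of 250 bases before to 50 bases after each start in build GRCm38.p6. Of 27025 genes with such a window, 9.55% held a GAS match, 3.99% an ISRE match, 4.51% an ATF4 match and 0.137% an ERSE match. Windows were found for 7 of 9 interferon pathway genes higher in chronic cells, all but Gbp4 and Iigp1, and for 5 of 6 ATF4 and unfolded protein response genes lower in chronic cells, all but Cars. Each window printed here holds a match wholly before the start, with the matched letters in capitals and up to 25 bases on either side. Other matches before the start, to GAS in Gbp7, Igtp and Shmt2, are described below but not printed.
Irf1 GAS, chr11:53769899-53769957, plus strand: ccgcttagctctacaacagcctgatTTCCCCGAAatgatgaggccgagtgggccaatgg
B2m ISRE, chr2:122147523-122147582, plus strand: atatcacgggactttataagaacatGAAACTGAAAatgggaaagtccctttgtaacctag
H2-T22 ISRE, chr17:36042899-36042958, minus strand: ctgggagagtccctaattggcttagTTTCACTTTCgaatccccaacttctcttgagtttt
Gbp7 ISRE, chr3:142530258-142530317, plus strand: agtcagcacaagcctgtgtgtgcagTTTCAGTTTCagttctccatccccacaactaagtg
Igtp ISRE, chr11:58199497-58199555, plus strand: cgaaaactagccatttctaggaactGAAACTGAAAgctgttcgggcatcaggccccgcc
Hspa5 ERSE, chr2:34772000-34772068, plus strand: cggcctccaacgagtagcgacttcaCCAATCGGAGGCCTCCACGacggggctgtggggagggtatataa
Chac1 ATF4 element, chr2:119351024-119351081, plus strand: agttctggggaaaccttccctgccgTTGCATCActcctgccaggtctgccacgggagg
The Irf1 match lay 90 to 82 bases before the start and the B2m match 139 to 130 bases before it. Gbp7 also held GAS matches 106 to 98 and 87 to 79 bases before its start, and Igtp held one 45 to 37 bases before its start, neither overlapping the ISRE. H2-D1 and H2-Q6 held none of the 4 elements in these windows, nor did Psph among the lower genes. The Trib3 match to the ATF4 element lay after its start, and Shmt2 held a GAS match but no ATF4 element. A match is a description of letters and not of binding.

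After 24 h of fresh IFNγ, chronic CT26 cells held more mRNA for 4 of 24 MHC class I pathway genes and 4 of 19 GBP and IRG genes than naive cells, and less mRNA for 6 of 37 ATF4 and unfolded protein response genes. In all, 211 of 8516 genes tested passed an adjusted p of 0.05 by edgeR's quasi-likelihood test, 2.48%. Of these, 41 were higher in chronic cells (0.481% of genes tested) and 170 lower (2%). The higher genes had a median log2 difference of 0.93 and the lower genes one of 0.57 in size, so most differences were under 2-fold: 16 higher and 13 lower genes passed a log2 difference of 1. The 3 chronic samples lay wholly above the 3 naive samples for 40 of the 41 higher genes, and wholly below for 167 of the 170 lower genes. Among all genes tested, 8.06% lay wholly above and 8.48% wholly below. With library totals as the only scaling, 102 genes were higher and 121 lower, since that scaling moved the median log2 difference of all genes from 0.04 to 0.14. The count of 211 fell to 46 without chronic sample 3, to 137 without chronic sample 1, to 73 without naive sample 1, to 62 without naive sample 2 and to 31 when only the 6 samples were fitted. It fell to 0 when replicate 1 was left out of all 15 groups, with 711 genes at an unadjusted p below 0.05.

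H2-D1, a classical class I heavy chain at chr17:35262730-35267499, stood at 222, 277 and 354 CPM in the naive samples and at 511, 495 and 646 CPM in the chronic samples. All 3 chronic samples exceeded all 3 naive samples, and the log2 difference was 0.93 ± 0.13 (SE, adjusted p = 2.54e-05 by edgeR), a 1.90-fold higher level. B2m, the light chain that every class I molecule needs, at chr2:122147686-122153083, stood at 1184, 1267 and 1674 CPM in naive and 2380, 2530 and 2355 CPM in chronic samples. Its groups did not overlap either, with a log2 difference of 0.81 ± 0.13 (SE, edgeR adjusted p = 5.06e-04). Both genes stayed past the threshold with any 1 of the 6 samples left out.

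Naive cells had themselves responded in both genes. In controls at 0 weeks, H2-D1 was at 173 ± 18.2 CPM and B2m at 732 ± 20.3 CPM (SD, n = 3), so that 24 h of IFNγ raised H2-D1 by a log2 of 0.74 (adjusted p = 1.28e-04) and B2m by 0.92 (adjusted p = 3.13e-06) in naive cells. Set against the controls kept for 3 weeks, the chronic cells after fresh IFNγ were higher by 1.68 for H2-D1 and 1.25 for B2m, with adjusted p of 4.83e-14 and 1.01e-09. The 3-week response less the naive response was 0.94 for H2-D1 and 0.34 for B2m on the log2 scale. Neither value passed (edgeR adjusted p = 0.0532 and 0.523). The control level of H2-D1 was 172 ± 20.9 CPM after 3 weeks, a log2 difference of -0.01 from the 0-week controls (adjusted p = 0.995). The control level of B2m was 1016 ± 80.0 CPM after 3 weeks, a log2 difference of 0.47 that missed the threshold (adjusted p = 0.0746).

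Of 24 tested genes of the class I pathway, 4 were higher, 1 was lower and 19 did not pass, with a list median of 0.31 against 0.04 for all genes tested. H2-T22, a non-classical class I gene named here because the called members are few, was the third to rise, from 81.2, 61.2 and 61.0 CPM in naive to 110, 88.3 and 108 CPM in chronic samples (log2 difference 0.61 ± 0.17, adjusted p = 0.0345). H2-Q6 was called on few counts. It had 0 counts in all 3 naive samples and 7, 1 and 7 in the chronic ones, which is at least 4.09-fold higher if the naive group is given a floor of 3 counts over its samples. The gene had counts in every control sample, at 3.54 to 9.99 CPM at 0 weeks, so the naive 24 h samples were the low ones. It lost the call with any sample but chronic sample 2 left out (adjusted p from 0.0705 to 0.101). It has near-identical neighbours in the H2-Q cluster, and reads may have been split among them. Pdia3, a disulphide isomerase of the peptide-loading complex and of general protein folding, was the lower member, at 554, 552 and 357 CPM in naive and 290, 319 and 275 CPM in chronic samples (log2 difference -0.71 ± 0.16, adjusted p = 0.00691). It lost the call without chronic sample 3 (adjusted p = 0.0694), naive sample 1 (0.0668) or naive sample 2 (0.0969).

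**Figure D1:**
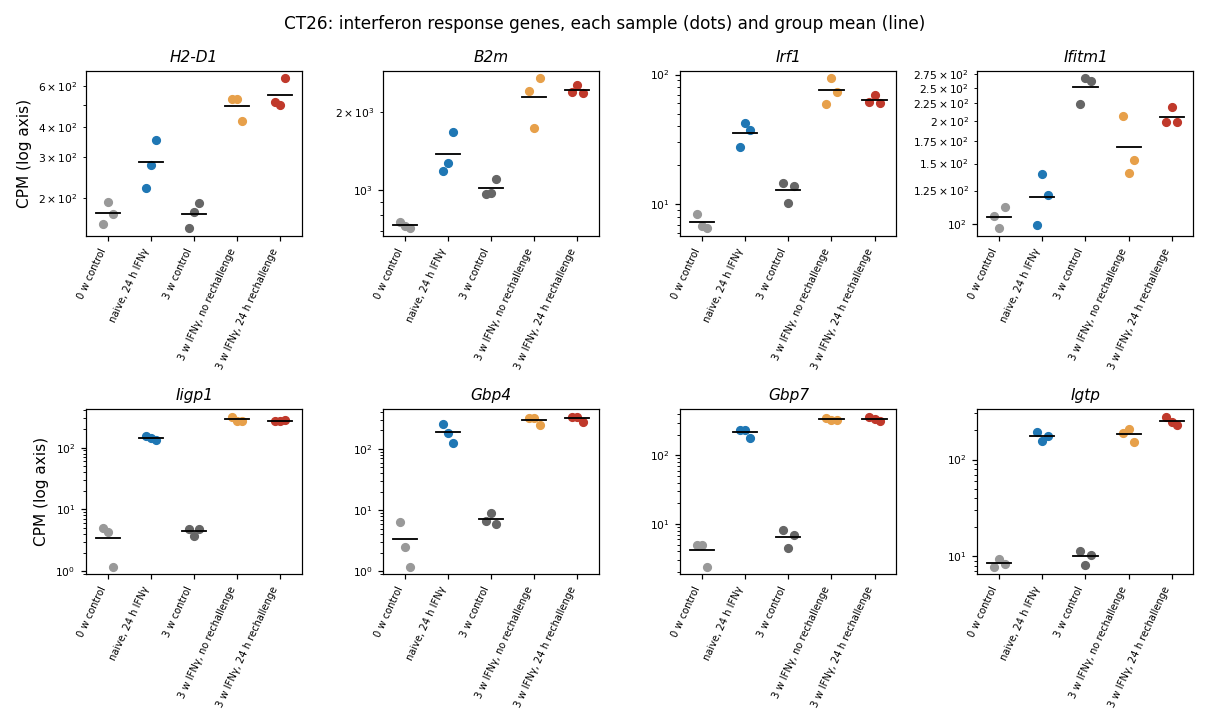
CPM on log axes of 8 interferon response genes in each CT26 sample (dots, 3 per group) with group means (lines), for controls at 0 and 3 weeks, naive cells after 24 h of IFNγ, and 3-week cells without and with 24 h of fresh IFNγ. The 3-week cells lie above the naive 24 h samples in H2-D1, B2m, Irf1, Iigp1, Gbp4, Gbp7 and Igtp after rechallenge, and also in Ifitm1, whose 3-week controls (251 CPM on average) are higher still.

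Among the GTPases, 4 of 19 tested genes were higher and none was lower, with a list median of 0.52 and 16 members above 0. Iigp1, an IRG that acts on parasite vacuoles, stood at 152, 141 and 131 CPM in naive and 268, 267 and 281 CPM in chronic samples, a log2 difference of 0.96 ± 0.18 (SE, edgeR adjusted p = 0.00161). Its groups spanned 131 to 152 and 267 to 281 CPM, and lying apart was a condition for genes named by size of change. Gbp7 stood at 232, 236 and 181 CPM in naive and 368, 344 and 315 CPM in chronic samples, and Gbp4 at 259, 182 and 126 CPM and 338, 332 and 276 CPM. The log2 differences were 0.68 ± 0.15 for Gbp7 and 0.79 ± 0.19 for Gbp4, with edgeR adjusted p of 0.00574 and 0.0150. Igtp, an IRG that guards the cell's own membranes, rose by the least, from 194, 156 and 175 CPM to 279, 245 and 228 CPM (log2 difference 0.52 ± 0.14, adjusted p = 0.0354). Iigp1 and Gbp7 kept the call with any 1 sample left out. Gbp4 lost it without chronic sample 1 (adjusted p = 0.0572), chronic sample 2 (0.0520), naive sample 2 (0.0797) or naive sample 3 (0.151), and Igtp lost it with any of the 6 left out (adjusted p from 0.0618 to 0.202).

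These differences were small beside the response to IFNγ itself. In naive cells 24 h of IFNγ raised Gbp7 by a log2 of 5.68, Gbp4 by 5.78, Iigp1 by 5.32 and Igtp by 4.34, from control levels between 3.36 and 8.5 CPM. In 3-week cells against their own 3-week controls the same genes were raised by 5.69, 5.48, 5.87 and 4.63. Of the 19 GTPases, 15 were higher than control in each of those comparisons. Among all genes tested, 174 (2.04%) differed in naive cells, 1.77% being higher, and 381 (4.47%) in 3-week cells, 2.01% being higher and 2.47% lower. The naive and 3-week responses share no sample with each other. Their difference is the chronic against naive difference less the change of the controls. In that contrast edgeR called 0 of 8516 genes and DESeq2 71, which does not show that the responses were alike.

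Irf1, the transcription factor that carries the second wave of the response, at chr11:53770014-53778374, was the single member called among 17 tested genes of the receptor, its kinases and their transcription factors. It stood at 27.7, 42.5 and 37.2 CPM in naive and at 60.9, 69.7 and 60 CPM in chronic samples. The log2 difference was 0.81 ± 0.21 (SE, edgeR adjusted p = 0.0207), and the groups did not overlap. The call was lost without chronic sample 2 (adjusted p = 0.0891), chronic sample 3 (0.0735), naive sample 1 (0.122) or naive sample 3 (0.0561).

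Parp14, an interferon-induced ADP-ribosyltransferase, had 5, 9 and 17 counts in naive and 8, 12 and 20 in chronic samples (log2 difference 0.06 ± 0.52, adjusted p = 0.989). Cd274, which encodes PD-L1, had 10, 4 and 8 counts against 10, 11 and 9 (log2 difference 0.07 ± 0.55, adjusted p = 0.987), and Socs1, the inhibitor of JAK signalling, had 1, 2 and 6 counts against 0, 6 and 7 (log2 difference 0.23 ± 0.80, adjusted p = 0.949). At such counts a 2-fold higher level lay within the 95% intervals of all 3. None of the 7 PARP and DTX genes, 15 feedback genes, 15 NF-κB genes, 5 chemokine genes and 8 checkpoint genes tested passed the threshold, where 2.48% of all genes did, so that few or no calls would be near the background in lists of this size; the medians were 0.39, -0.01, 0.12, -0.03 and 0.15. Ciita had 0 counts in the naive samples and 1 in the chronic samples together, and Cd74 had 0 and 2. No difference could be measured for these MHC class II pathway genes. The 2 tested members of that list, Ifi30 (log2 difference -0.16) and Rfxap (-0.007), did not pass.

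Some genes known as interferon targets were lower in chronic cells. Of the study's own list of 14 IFNγ-responsive genes, 2 were higher (B2m and Irf1) and Xaf1 was lower, and of 45 antiviral genes Ifitm1 was higher and Samhd1 and Xaf1 were lower; the study chose its list in part on data of this kind, so it is not independent evidence of direction. Xaf1, an adaptor linked to apoptosis, stood at 1487, 1386 and 1097 CPM in naive and 1020, 893 and 939 CPM in chronic samples (log2 difference -0.47 ± 0.10, adjusted p = 0.00574). Its level in 0-week controls was 1174 ± 48.9 CPM (SD, n = 3), and 24 h of IFNγ gave a log2 difference of 0.17 in naive cells (adjusted p = 0.564). Samhd1, a dNTP hydrolase, had the same course, at 1594, 1809 and 1359 CPM against 1183, 1150 and 972 CPM, with 1534 ± 41.6 CPM in the 0-week controls. Xaf1 lost its call without chronic sample 3 (adjusted p = 0.0517), naive sample 1 (0.0832) or naive sample 2 (0.0660), and Samhd1 without chronic sample 3 (0.0891) or naive sample 2 (0.104). Ifitm1, a membrane protein that restricts virus entry, rose from 99.0, 139 and 121 CPM to 198, 219 and 199 CPM (log2 difference 0.77 ± 0.16, adjusted p = 0.00417) and kept its call with any 1 sample left out.

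**Figure D2:**
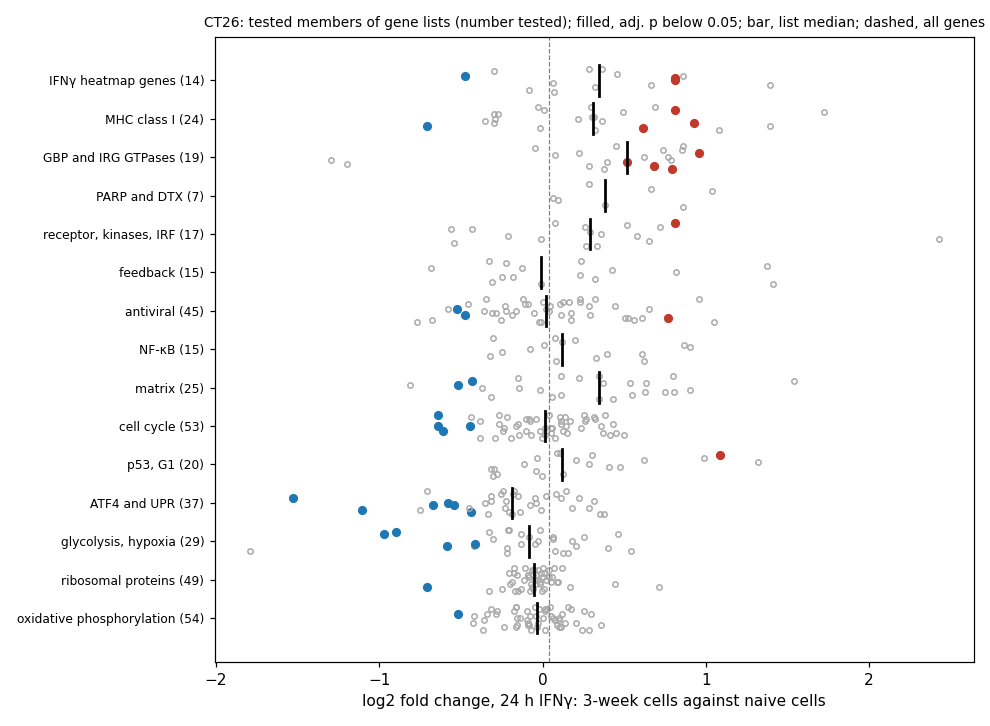
Log2 fold change of chronic against naive cells after 24 h of IFNγ (x axis) for the tested members of 15 gene lists (rows, number tested in brackets), with called genes filled, list medians as bars and the median of all genes dashed; H2-Q6 is not drawn. Called genes lie to the right in the GTPase row and, except Pdia3 at -0.71, in the MHC class I row, and to the left in the ATF4, glycolysis and cell cycle rows.

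Genes of the ATF4 and unfolded protein response made up the largest lower group among the lists. Of 37 tested members, 6 were lower and none was higher, with a list median of -0.19 and 27 members below 0. Trib3, a pseudokinase induced by ATF4, at chr2:152337422-152344032, showed the largest decrease of all genes named by size. It stood at 47.5, 42.5 and 47.6 CPM in naive and 18.1, 22.3 and 7.94 CPM in chronic samples (log2 difference -1.53 ± 0.26, adjusted p = 5.06e-04). Chac1, which degrades glutathione and is also an ATF4 target, stood at 33.7, 32.3 and 43.9 CPM against 16.9, 22.3 and 13.2 CPM (log2 difference -1.11 ± 0.27, adjusted p = 0.0163). In neither gene did the groups overlap, which was a condition for genes named by size of change.

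Hspa5, the endoplasmic reticulum chaperone BiP, stood at 578, 591 and 453 CPM in naive and 315, 331 and 364 CPM in chronic samples (log2 difference -0.67 ± 0.12, adjusted p = 9.18e-04). This gene rose with 24 h of IFNγ in naive cells, from 370 ± 33.5 to 541 ± 76.5 CPM (SD, n = 3), a log2 of 0.54 (adjusted p = 0.00245). In 3-week cells after fresh IFNγ it stood at 0.28 above the 3-week controls, which did not pass (adjusted p = 0.206). The 3-week response less the naive response, the same as the chronic against naive difference less the change of the controls, was -0.26. It did not pass (adjusted p = 0.585). Cars, the cysteinyl-tRNA synthetase, stood at 109, 84.9 and 114 CPM against 66.1, 69.7 and 76.8 CPM (log2 difference -0.54 ± 0.13, adjusted p = 0.0151). The remaining lower members, named because they are few, were the serine pathway enzymes Psph (-0.44, adjusted p = 0.0292) and Shmt2 (-0.58, adjusted p = 0.0164). Trib3 and Hspa5 kept the call with any 1 sample left out. Chac1 lost it without chronic sample 1 (adjusted p = 0.0611), chronic sample 3 (0.161) or naive sample 3 (0.128), and Cars with any sample but naive sample 2 left out (0.0517 to 0.178).

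**Figure D3:**
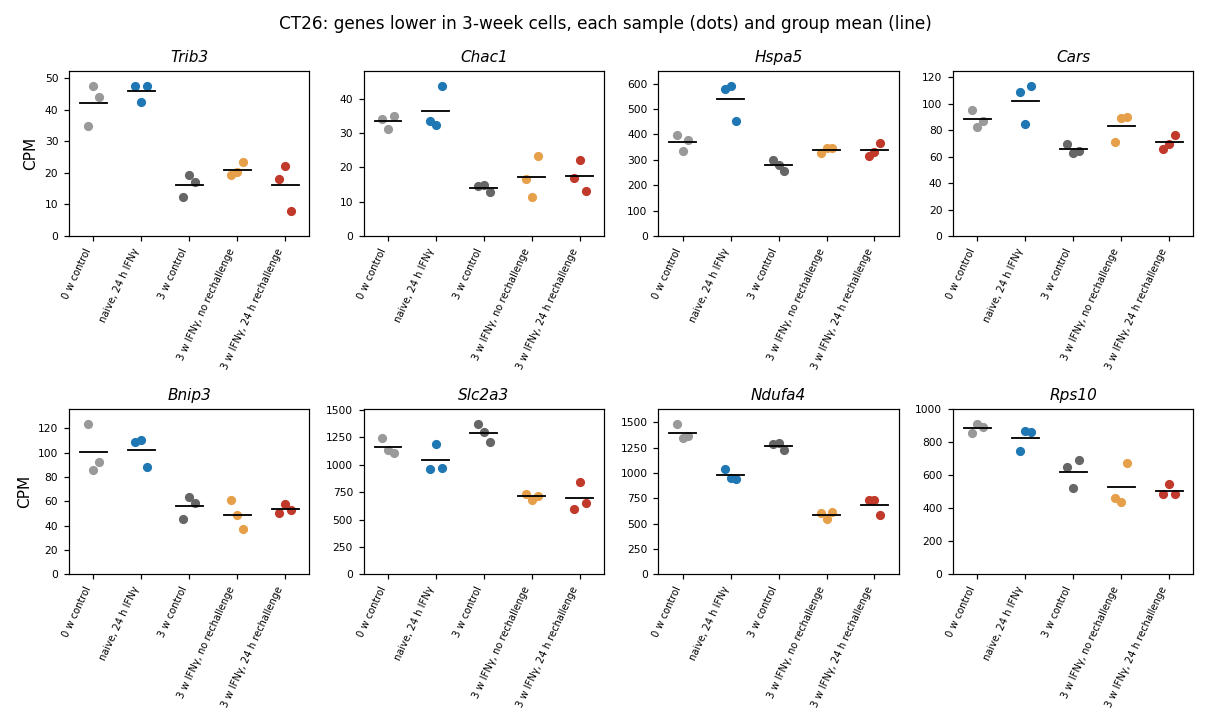
CPM of 8 genes that were lower in chronic cells in each CT26 sample (dots, 3 per group) with group means (lines), in the same 5 groups as for the interferon genes, on axes that start at 0. Trib3 and Chac1 are as low in the 3-week controls (16.2 and 14.1 CPM on average) as in the chronic cells, while Slc2a3 and Ndufa4 average 1295 and 1265 CPM in the 3-week controls and are lowest in both groups of 3-week cells with IFNγ.

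Genes of glycolysis and hypoxia gave 4 lower and no higher calls among 29 tested. Slc2a3, the glucose transporter GLUT3, stood at 964, 1192 and 975 CPM in naive and 592, 840 and 649 CPM in chronic samples (log2 difference -0.59 ± 0.12, adjusted p = 0.00352). Bnip3, a mitophagy receptor induced by hypoxia, stood at 109, 110 and 87.7 CPM against 50.5, 57.6 and 53 CPM (log2 difference -0.90 ± 0.22, adjusted p = 0.0150). Higd1a, a respiratory chain assembly factor, differed by -0.41 ± 0.11 (adjusted p = 0.0354), and Pfkl, a phosphofructokinase, by -0.97 ± 0.27 (adjusted p = 0.0378) with overlapping groups. Ndufa4, a subunit of cytochrome c oxidase, was the single lower member of 54 respiratory chain genes, at 1037, 951 and 936 CPM against 728, 729 and 580 CPM (log2 difference -0.52 ± 0.11, adjusted p = 0.00352). It fell with IFNγ in naive cells too, by 0.52 on the log2 scale from the 0-week controls (adjusted p = 8.76e-04). Without chronic sample 3 the adjusted p was 0.0517 for Slc2a3, 0.0854 for Ndufa4, 0.0958 for Bnip3, 0.302 for Higd1a and 0.263 for Pfkl. Without naive sample 2 it was 0.0708 for Slc2a3, 0.110 for Bnip3, 0.128 for Higd1a and 0.114 for Pfkl. Removal of other single samples cost further calls: chronic sample 1 those of Bnip3 (0.0633) and Higd1a (0.0704), naive sample 1 those of Bnip3 (0.0751) and Higd1a (0.300), and chronic sample 2 and naive sample 3 that of Pfkl (0.103 and 0.333).

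Of 53 cell cycle genes, 4 were lower, none was higher and 49 did not pass, with a list median of 0.02. The 4 were Cenpf, a kinetochore protein (log2 difference -0.45 ± 0.10), Plk1, the mitotic kinase (-0.61 ± 0.17), Ube2c, which works with the anaphase-promoting complex (-0.64 ± 0.16), and Pola1, the catalytic subunit of DNA polymerase alpha (-0.64 ± 0.13). Their adjusted p values were 0.00958, 0.0427, 0.0150 and 0.00417. Pola2, the second subunit of the same polymerase, was also lower, at 73.3, 39.1 and 43.9 CPM against 22, 18.6 and 27.4 CPM (log2 difference -1.14 ± 0.26, adjusted p = 0.00867). Rps10 alone among 49 ribosomal protein genes was lower, at 744, 871 and 863 CPM against 486, 545 and 488 CPM (log2 difference -0.71 ± 0.13, adjusted p = 9.18e-04). Rps10 held with any 1 sample left out, Plk1 with none (0.0833 to 0.178), and without naive sample 2 the adjusted p was 0.0855 for Cenpf, 0.174 for Ube2c and 0.103 for Pola1. Without chronic sample 3 it was 0.0995 for Cenpf, 0.0626 for Ube2c and 0.0995 for Pola1, without naive sample 1 it was 0.0570 for Cenpf and 0.0991 for Pola2, and without chronic sample 2 it was 0.110 for Ube2c and 0.0616 for Pola2.

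Several genes with the largest differences belong to none of the interferon lists. Mdm2, the ubiquitin ligase that restrains p53, at chr10:117688875-117710758, rose from 63.4, 37.4 and 40.9 CPM in naive to 101, 98.5 and 91.8 CPM in chronic samples (log2 difference 1.09 ± 0.20, adjusted p = 0.00112). It was the single member called of 20 tested p53 and G1 genes. Sh3glb1, which shapes membranes in autophagy and apoptosis, rose from 61.4, 74.7 and 68.4 CPM to 109, 160 and 125 CPM (log2 difference 0.95 ± 0.19, adjusted p = 0.00348). Il1rl1, the IL-33 receptor, rose from 37.6, 28.9 and 34.2 CPM to 84.2, 75.3 and 55.6 CPM (log2 difference 1.08 ± 0.25, adjusted p = 0.00971). Bola1, a mitochondrial protein of iron-sulphur and redox biology at chr3:96196588-96219709, had the lowest p of all and fell from 204, 180 and 119 CPM to 70.0, 67.8 and 69.7 CPM (log2 difference -1.23 ± 0.15, adjusted p = 4.10e-06). Mdm2, Sh3glb1 and Bola1 kept the call with any 1 sample left out; Il1rl1 lost it without chronic sample 1 (0.0509) or naive sample 2 (0.0764).

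The remaining genes ranked by size were at lower levels. Those higher in chronic cells were Nbr1, an autophagy receptor (log2 difference 1.81), Aldh3a1, an aldehyde dehydrogenase (1.54), Akr1b10, an aldo-keto reductase (1.48), Mtmr9 (1.42), Ereg, an EGF receptor ligand (1.29), Mbnl2, a splicing regulator (1.26), Glipr1 (1.07) and Pdlim5 (0.98). All 8 had under 30 CPM on average in naive cells, and each lost its call without at least 3 of the 6 samples. Those lower were Tbrg4 (-1.50), Gm43041 (-1.41), Gm39459 (-1.36), Gm48870 (-1.34), Pggt1b (-1.32), 9130401M01Rik (-1.15), Necap2 (-1.12) and Slc23a1 (-1.07). Of these 8, 9130401M01Rik kept its call with any 1 sample left out and Tbrg4 lost it without chronic sample 3 (adjusted p = 0.0517), while each of the other 6 lost it without at least 3 of the 6 samples. Id2, an inhibitor of helix-loop-helix factors (0.75 ± 0.21), and Pgd, of the pentose phosphate pathway (0.58 ± 0.15), were among the higher members of other lists. Cflar, an inhibitor of caspase 8 (-0.49 ± 0.14), and the matrix genes Fn1 (-0.43 ± 0.10) and Loxl2 (-0.52 ± 0.12) were lower. Each of these last 5 lost its call without at least 3 of the 6 samples. Of the 53 called genes followed in this way, 12 kept the call with each of the 6 samples left out in turn, 7 higher and 5 lower.

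Lower calls were more frequent among long non-coding genes. Of 451 long non-coding genes tested, 1 was higher and 30 were lower (6.65%), against 40 higher and 134 lower (1.72%) of 7779 protein-coding genes. Long non-coding genes took 6.24%, 6.40% and 5.64% of all counts in the naive samples and 5.55%, 5.37% and 5.19% in the chronic samples, so the groups did not overlap (exact permutation p = 0.1, the smallest that 3 against 3 allows). Naive samples 1 and 2, the shallowest of the 6, also had the highest mitochondrial shares, 7.89% and 7.93%, against 6.20% in naive sample 3 and 6.89% to 7.20% in the chronic samples. The part of these shares in the 170 lower calls was not tested.

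Control cultures changed over the same 3 weeks without IFNγ. Between 3-week and 0-week controls, which share no sample with the main comparison, 49 genes were higher (0.575% of genes tested) and 29 lower (0.341%). Of the 41 genes higher in chronic cells, 37 also had a positive difference in the controls, where 50% of all genes did, and 12 of them passed the threshold there. Of the 170 lower genes, 132 had a negative difference in the controls, against 49.9% of all genes, and 12 passed. No gene was called in opposite directions.

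Among the genes called in both comparisons were Trib3, Chac1 and Shmt2 of the 6 lower ATF4 and unfolded protein response genes, Mdm2, and Ifitm1 of the antiviral list. Hspa5, Cars and Psph were not called in controls (adjusted p = 0.0746, 0.0749 and 0.409). Trib3 was at 34.7, 47.5 and 44.0 CPM in 0-week controls and at 12.3, 19.2 and 17.2 CPM in 3-week controls (log2 difference -1.36, adjusted p = 3.05e-04), close to its difference under IFNγ. Chac1 differed by -1.25 in controls (adjusted p = 0.00292), Bnip3 by -0.84 (0.0178), Rps10 by -0.51 (0.0249) and Shmt2 by -0.52 (0.0381). Among the higher genes, Sh3glb1 differed by 1.18 in controls (adjusted p = 3.15e-05), Ifitm1 by 1.26 (3.07e-07), Id2 by 1.22 (3.78e-05), Aldh3a1 by 1.77 (0.00256) and Mdm2 by 0.97 (0.00140). H2-D1, Iigp1, Gbp4, Gbp7, Igtp and Irf1 were not called in controls, with adjusted p from 0.181 to 0.995, but the control differences were not all small. They were 1.10 ± 0.52 for Gbp4, 0.83 ± 0.29 for Irf1 and 0.67 ± 0.39 for Gbp7 (SE), as large as under IFNγ, and 0.40 ± 0.51 for Iigp1, 0.22 ± 0.29 for Igtp and -0.01 ± 0.13 for H2-D1.

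**Figure D4:**
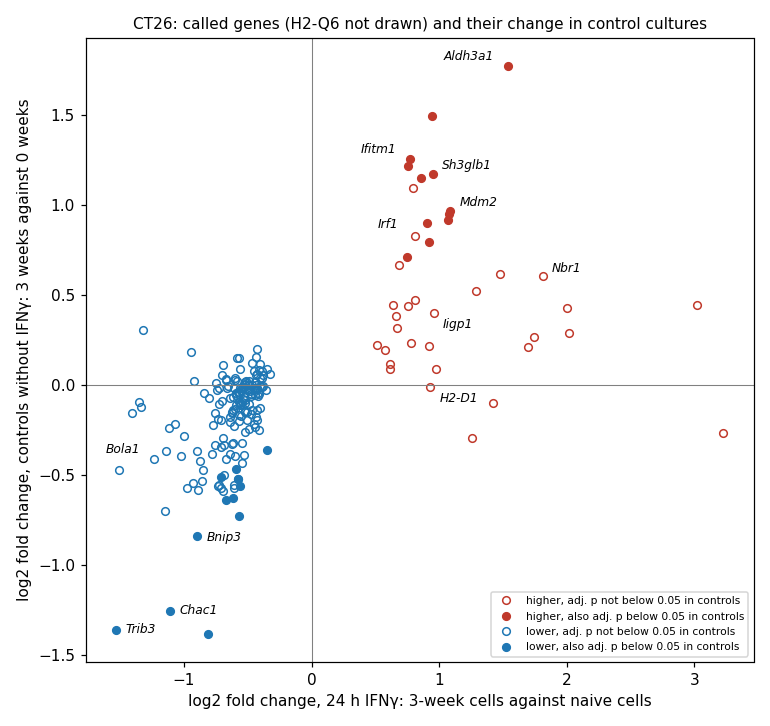
Log2 fold change of chronic against naive cells after 24 h of IFNγ (x axis) and of 3-week against 0-week controls (y axis) for the called genes except H2-Q6, with genes also called in controls filled. Filled points occur only where both changes have the same sign, and H2-D1 lies on the zero line of the controls.

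When the change of the controls was subtracted, no gene passed the threshold by edgeR, although 911 genes had an unadjusted p below 0.05. DESeq2 called 71 in this contrast, 70 of them lower, after setting 7760 adjusted p values to NA. H2-D1 came nearest by edgeR, at 0.94 ± 0.18 on the log2 scale (adjusted p = 0.0532). For B2m the value was 0.34, for Mdm2 0.12, for Irf1 -0.02 and for Trib3 -0.17, with adjusted p from 0.523 to 0.994. At this threshold edgeR thus separated none of the 211 differences from the change seen in the controls.

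Between chronic cells with and without the 24 h rechallenge, edgeR and DESeq2 each called 0 of 8516 genes, with 439 at an unadjusted p below 0.05 by edgeR. Without rechallenge, chronic cells had 493 ± 59.0 CPM of H2-D1, 2270 ± 487 of B2m, 287 ± 26.9 of Iigp1, 333 ± 11.3 of Gbp7 and 75.6 ± 17.0 of Irf1 (SD, n = 3). With it they had 551 ± 83.0, 2422 ± 94.7, 272 ± 7.67, 342 ± 26.5 and 63.5 ± 5.34. One of the samples without rechallenge had a total under 25% of the median of the line, and the count stayed at 0 when the 2 CT26 samples of such low totals were left out, the other being from another group.

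The levels after 24 h of fresh IFNγ were followed over the weeks of exposure before it, as a description without a test. Weeks of exposure were also weeks in culture. Controls at 1 and 2 weeks were not set beside these levels, so exposure and culture time are not told apart here. For the interferon genes the step came with the first week. H2-D1 averaged 284 CPM in naive cells, 502 at 1 week, 530 at 2 weeks and 551 at 3 weeks, and B2m 1375, 2205, 2590 and 2422. In both genes all samples of 1, 2 and 3 weeks lay above all naive samples. Irf1 averaged 35.8, 89.0, 102 and 63.5 CPM, and Gbp4 189, 470, 370 and 315 CPM, so the 3-week samples were above the naive samples but below the 1-week samples.

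Over the same weeks of exposure and culture, the ATF4 targets took another course. Trib3 averaged 45.9 CPM in naive cells, 54.2 at 1 week, 32.1 at 2 weeks and 16.1 at 3 weeks, and Chac1 36.6, 38.7, 21.8 and 17.5. At 1 week Trib3 was above the naive samples and Chac1 overlapped them, and at 2 and 3 weeks both lay below. Rps10 averaged 826, 840, 621 and 506 CPM, and Hspa5 541, 464, 329 and 337 CPM. Bola1 was already below the naive samples at 1 week, with averages of 168, 102, 70.7 and 69.2 CPM.

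**Figure D5:**
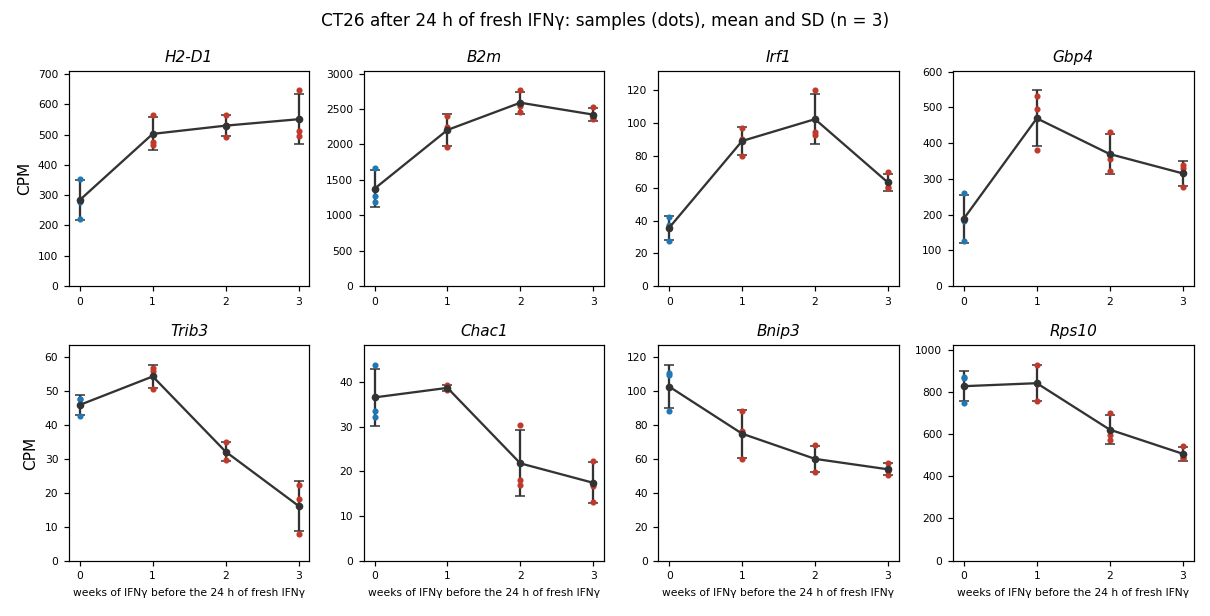
CPM of 4 interferon genes (top) and 4 genes lower in chronic cells (bottom) after 24 h of fresh IFNγ against the weeks of exposure before it, with samples as dots and mean ± SD (n = 3), on axes that start at 0. H2-D1 and B2m step up between 0 and 1 week (284 to 502 and 1375 to 2205 CPM), while Trib3 and Chac1 decline from 1 to 3 weeks (54.2 to 16.1 and 38.7 to 17.5 CPM).

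After 2 h of IFNγ, in samples not shared with the 24 h comparison, chronic and naive cells differed in 876 genes (10.3%), with 365 higher (4.29% of genes tested) and 511 lower (6%). Of the 41 genes higher at 24 h, 35 were above 0 at 2 h, where 53.6% of all genes tested were, and 20 were called higher. Of the 170 lower genes, 165 were below 0, where 46.2% of all genes tested were, and 106 were called lower. None was called in the other direction. The gap was wider at 2 h for Gbp4, Iigp1, Gbp7, Igtp and H2-D1, each called by edgeR for the change between the times. That change was not called for Irf1, Ifitm1 or B2m (for B2m -0.66 on the log2 scale, adjusted p = 0.0758). Iigp1 was at 23.1 ± 4.31 CPM in naive and 411 ± 19.2 CPM in chronic cells, a log2 difference of 4.15, and Gbp4 at 7.41 ± 2.00 and 429 ± 95.8 CPM, one of 5.82 (SD, n = 3). The change from 2 h to 24 h in the difference between chronic and naive cells was itself called for 94 genes (1.1%).

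In YUMM2.1 cells the same comparison gave 22 higher (0.229%) and 56 lower genes (0.584%) of 9589 tested. Of the 33 higher genes of CT26 tested there, 15 (45.5%) were above 0, against 50.6% of all genes tested, and 2 were called higher and 5 lower. Of the 168 lower genes, 128 (76.2%) were below 0, against 49.3% of all genes tested, and 14 were called lower and 1 higher. The 5 genes higher in CT26 and called lower in YUMM2.1 were Irf1, Gbp4, Gbp7, Igtp and Iigp1. Gbp4 stood at 265, 245 and 154 CPM in naive YUMM2.1 cells and at 71.3, 96.7 and 79.4 CPM in chronic ones (log2 difference -1.39 ± 0.21, adjusted p = 4.39e-05). Irf1 stood at 55.1, 73.8 and 63.2 CPM and at 35.2, 38.7 and 32.8 CPM (log2 difference -0.85 ± 0.18, adjusted p = 0.00761). H2-D1, in contrast, was higher in chronic cells of both lines, by 1.23 on the log2 scale in YUMM2.1 (adjusted p = 8.79e-06).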

How the data were processed

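Whole-number gene counts were used as deposited: the authors quantified 3′ digital gene expression libraries, and the labels name Salmon 0.13.1 and the mm10 genome. The counts were neither normalized nor pooled, no column was left unused, and 53668 of 53697 genes matched a symbol. The roles of these tools in making the counts are not given in the sources used here beyond the names. The study discarded a few outlier samples without naming them, most of them from CT26. All 45 CT26 samples were kept here, so discarded ones may be among those compared or fitted. Salmon spreads reads among near-identical genes, so counts of paralogs are uncertain.

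In R 4.3.3, genes were filtered by filterByExpr, scaled by TMM and fitted with edgeR 4.0.16 (quasi-likelihood test, limma 3.58.1) over the 15 groups of a line, p-values being adjusted by the Benjamini-Hochberg method and called below 0.05. Every adjusted p is from edgeR unless DESeq2 (1.42.0) is named. On simulated data for the main comparison, 75% of 200 genes changed 4-fold among 8092 were recovered, with 7 false among 157 calls. For the contrast less the controls the share was 60%, with 13 false among 133 calls. A 4-fold change is larger than most found here (median log2 size 0.93 for higher and 0.57 for lower genes), so recovery of such smaller changes was not measured. Genes were named by size of change (12 per direction, with groups apart and at least 10 counts in each sample of the higher group) or as the 4 list members of smallest p. Genes outside that rule, among them H2-T22, Psph, Shmt2 and those of the closing observations, were chosen after their values were seen. The members and lists were chosen with earlier results of these data known. Replicates of a group differed by more than sampling noise (chi-square per degree of freedom from 2.04 to 5.75), so none was merged. Alternatives were DESeq2, library totals, no count filter, fitting the compared groups alone, a replicate block, and leaving out replicates, single samples or shallow samples. Differences between lines came from a joint fit of all 90 samples, added after the data were seen.

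Lists not described in the report gave few calls. Of 19 immediate early genes Ereg was higher, of 23 TGFβ genes Id2, of 27 NRF2 and metal genes Pgd, and of 24 cell death genes Cflar and Xaf1 were lower. Of 25 matrix genes Fn1 and Loxl2 were lower. None passed of 9 epithelial, 20 mesenchymal, 30 sterol, 6 interferon metabolism, 4 complement, 2 MHC class II and 13 mitochondrially encoded genes. A few genes of these lists are not reported here.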

Additional observations from a re-analysis of the deposited data

Results flagged for a closer look

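The difference between chronic and naive cells at 24 h itself differed between CT26 and YUMM2.1 for 50 of 10339 genes (0.484%) in a joint edgeR fit. Among the interferon genes that passed, the log2 difference of CT26 less that of YUMM2.1 was 2.17 for Gbp4, 1.64 for Irf1, 1.63 for Iigp1, 1.61 for Igtp and 1.34 for Gbp7. Others did not pass, with values of 0.30 for B2m, -0.31 for H2-D1, -0.24 for Samhd1 and -0.15 for Xaf1 (adjusted p from 0.832 to 0.925). Outside the interferon lists it was 1.89 for Akr1b10, 1.41 for Sh3glb1, 1.23 for Mdm2 and 1.18 for Id2. It was negative for Tbrg4 (-1.60), Pfkl (-1.57), 9130401M01Rik (-1.52), Bola1 (-1.46), Pola2 (-1.40), Rps10 (-0.79) and Ndufa4 (-0.71).

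Within CT26, the difference between chronic and naive cells changed between 2 h and 24 h. The 24 h difference less the 2 h difference was -5.02 for Gbp4, -3.20 for Iigp1, -2.29 for Gbp7, -1.36 for Igtp and -0.79 for H2-D1 on the log2 scale. It was -2.15 for Pggt1b, a subunit of a protein prenyltransferase, and 0.56 for Ndufa4.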

How the results depend on the processing

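The main count of 211 became 332 by DESeq2 (196 of the genes shared) and 31 with only the compared groups fitted (29 shared), and ranged from 0 to 304 when a replicate or a single sample was left out. With replicate 1 left out it was 0, with 711 genes at an unadjusted p below 0.05. The count for controls was 126 by DESeq2, 133 without a count filter, 220 with only the compared groups fitted, and 13 to 27 with a replicate left out. The contrast less the controls gave 71 calls by DESeq2, 2 on library totals, 78 without a count filter, 1 without shallow samples, and 0 to 2 with a replicate left out. Rechallenge against none gave 37 without a count filter and 0 to 1 with a replicate left out. Without a count filter, the 24 h less 2 h contrast gave 174 and YUMM2.1 gave 119. With a replicate left out, the ranges were 105 to 249 for naive cells against control, 140 to 364 for 3-week cells against control, 210 to 785 at 2 h, 55 to 112 for 24 h less 2 h and 14 to 79 in YUMM2.1. Library totals moved the share of higher calls from 19.4% to 45.7% in the main comparison, 62.8% to 42% in controls, 44.9% to 72.4% for 3-week cells against control, 41.7% to 75.2% at 2 h and 28.2% to 41.5% in YUMM2.1. Signs reversed for 3 uncalled genes of low counts: Cd274 was -0.08 without replicate 2, -0.16 without replicate 3 and -0.34 to 0.70 with single samples left out, Socs1 was -0.05 without replicate 2 and -0.19 to 0.72, and Parp14 was 0.30 without replicate 2, -0.22 without replicate 3 and -0.23 to 0.20 with single samples left out. The cause was not tested. Of the 53 called genes followed, 44 kept the call by DESeq2, which gave the other 9 no adjusted p (NA) and log2 differences of the same sign. The call was lost by 7 on library totals, by 18 without a count filter and by 36 of the 50 still tested with only the compared groups fitted.

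With a replicate block the counts were 234 for the main comparison (207 shared), 81 for controls, 0 for the contrast less the controls, 0 for rechallenge, 176 and 379 against controls, 917 at 2 h, 100 for 24 h less 2 h and 79 in YUMM2.1. The numbers were not taken to pair the samples, since same-numbered deviations correlated at 0.0657, 0.066 and 0.205, although each sample correlated best with its own number.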

Other observations

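Gene families picked after the calls were seen gave further lower genes in chronic cells, as values with no test of the family. Of 78 mitochondrial ribosomal protein genes tested, 7 were lower and 0 higher (Mrpl12, Mrpl17, Mrpl2, Mrpl27, Mrpl40, Mrpl9 and Mrps10), with a median log2 difference of -0.08 and 53 below 0. Of 21 genes for 19S proteasome subunits, which recognise and unfold ubiquitinated proteins, 4 were lower and 0 higher (Psmd12, Psmd4, Psmd6 and Psmd7), with a median of -0.14. None of 14 genes of the constitutive 20S core passed, with a median of -0.06. Of 20 cytosolic aminoacyl-tRNA synthetases, Cars and Tars were lower. All genes tested had a median of 0.04, and 2% of them were lower.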
